A study of Mus musculus with 20 samples.

Results

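The genes described are S100a4, S100a6, S100a10 and S100a11 of the S100 family, Anxa1, Anxa2 and Anxa3 of the annexin family, and Lgals1, which encodes galectin-1. They were taken by exact gene name from the count tables of tissue and of sorted cells, and all 8 were found among the 54532 genes of each table.

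The libraries come from a mouse model of colorectal liver metastasis, in which MC38 cells, derived from a colon adenocarcinoma of C57BL/6 mice, grew in the liver of wild-type (WT) C57BL/6 mice. Bulk RNA was sequenced from 14 pieces of liver or metastasis and from 6 preparations of cells that microbeads against F4/80 or CD11b had captured from Mt2 metastases. Control mice (con, day 0, 2 libraries) received normal saline. Every other group received MC38 cells and is also labelled WT. Tumor-free liver of a mouse with metastases (L-con, day 12) has 1 library. Metastases of low tumor content (Lt, day 9), of medium content (Mt3 at day 9, Mt2 and Mt1 at day 11) and of high content (Ht, day 12) have 2 libraries a group, apart from Ht with 3. The sorted groups F4/80+TAM and CD11b+TAM (day 11) have 3 libraries each. The labels give male mice for the tissue, whereas the study's methods give female mice, aged 6 to 8 weeks.

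Tissue libraries held 16032085 to 18246623 counts and sorted-cell libraries 17785496 to 20548370. At those depths, 3 counts correspond to 0.146 to 0.187 CPM by total counts, before the TMM scaling used for the levels below. Counts of Ht_1 and Ht_3 were summed because the methods call these libraries identical, so that Ht has 2 samples. By their counts Ht_3 is closer to Ht_2 than to Ht_1, with a chi-square per degree of freedom of 13.2 against 30.3. S100a6 in Ht_1 was 1.84 times and Lgals1 1.47 times the level in Ht_3, and in Ht_2 they were 0.970 and 1.03 times that level. Some libraries stand apart from their groups. The summed hepatocyte markers were 29698 CPM in Mt2 replicate 2 and 28635 CPM in Mt1 replicate 2, against 106964 to 141580.0 CPM in the other 4 Mt libraries. Among the sorted cells, CD11b+TAM replicate 3 had 2356 CPM of neutrophil markers, against 1119.7 and 657 CPM in replicates 1 and 2.

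S100 proteins are small calcium-binding proteins that act by binding to other proteins, among them annexins, which attach to membranes when calcium rises. S100A10 pairs with annexin A2 in a complex that holds plasminogen at the cell surface, and S100A11 binds annexin A1. Galectin-1 is a secreted lectin that binds galactose-bearing sugars on surface glycoproteins such as CD45. Hepatocytes are known to express little of most of these genes, whereas tumor cells, fibroblasts and myeloid cells express many of them.

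Per unit of gene length, the order of the 8 genes changed between normal liver and metastasis. In con, S100a10 had the highest FPKM of the 8 (77.4 and 127), ahead of Lgals1 (12.98 and 38.0). In Ht, Lgals1 led with 2892 and 2411 FPKM, followed by S100a6, S100a11 and S100a10. Lgals1 was the 2nd most abundant protein-coding gene by FPKM in both Ht samples, out of 22046, against places 3442 and 1483 in con. S100a6 moved from places 10018 and 12213 in con to places 9 and 14 in Ht. The FPKM of the 8 genes summed to 113 and 179.8 in con, 343 in L-con, 5339.6 and 4381 (Ht), 886 to 1135 in F4/80+TAM and 1206 to 2041 in CD11b+TAM. In bulk tissue, fewer cells of a type and less RNA per cell cannot be told apart. Levels below are TMM-scaled CPM from 1 scaling of all 19 samples. Tests are quasi-likelihood F tests of edgeR, with p adjusted by Benjamini-Hochberg across every gene tested. A gene was called where the adjusted p did not exceed 0.05 and the log2 fold change was 1 or more in size.

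**Figure D1:**
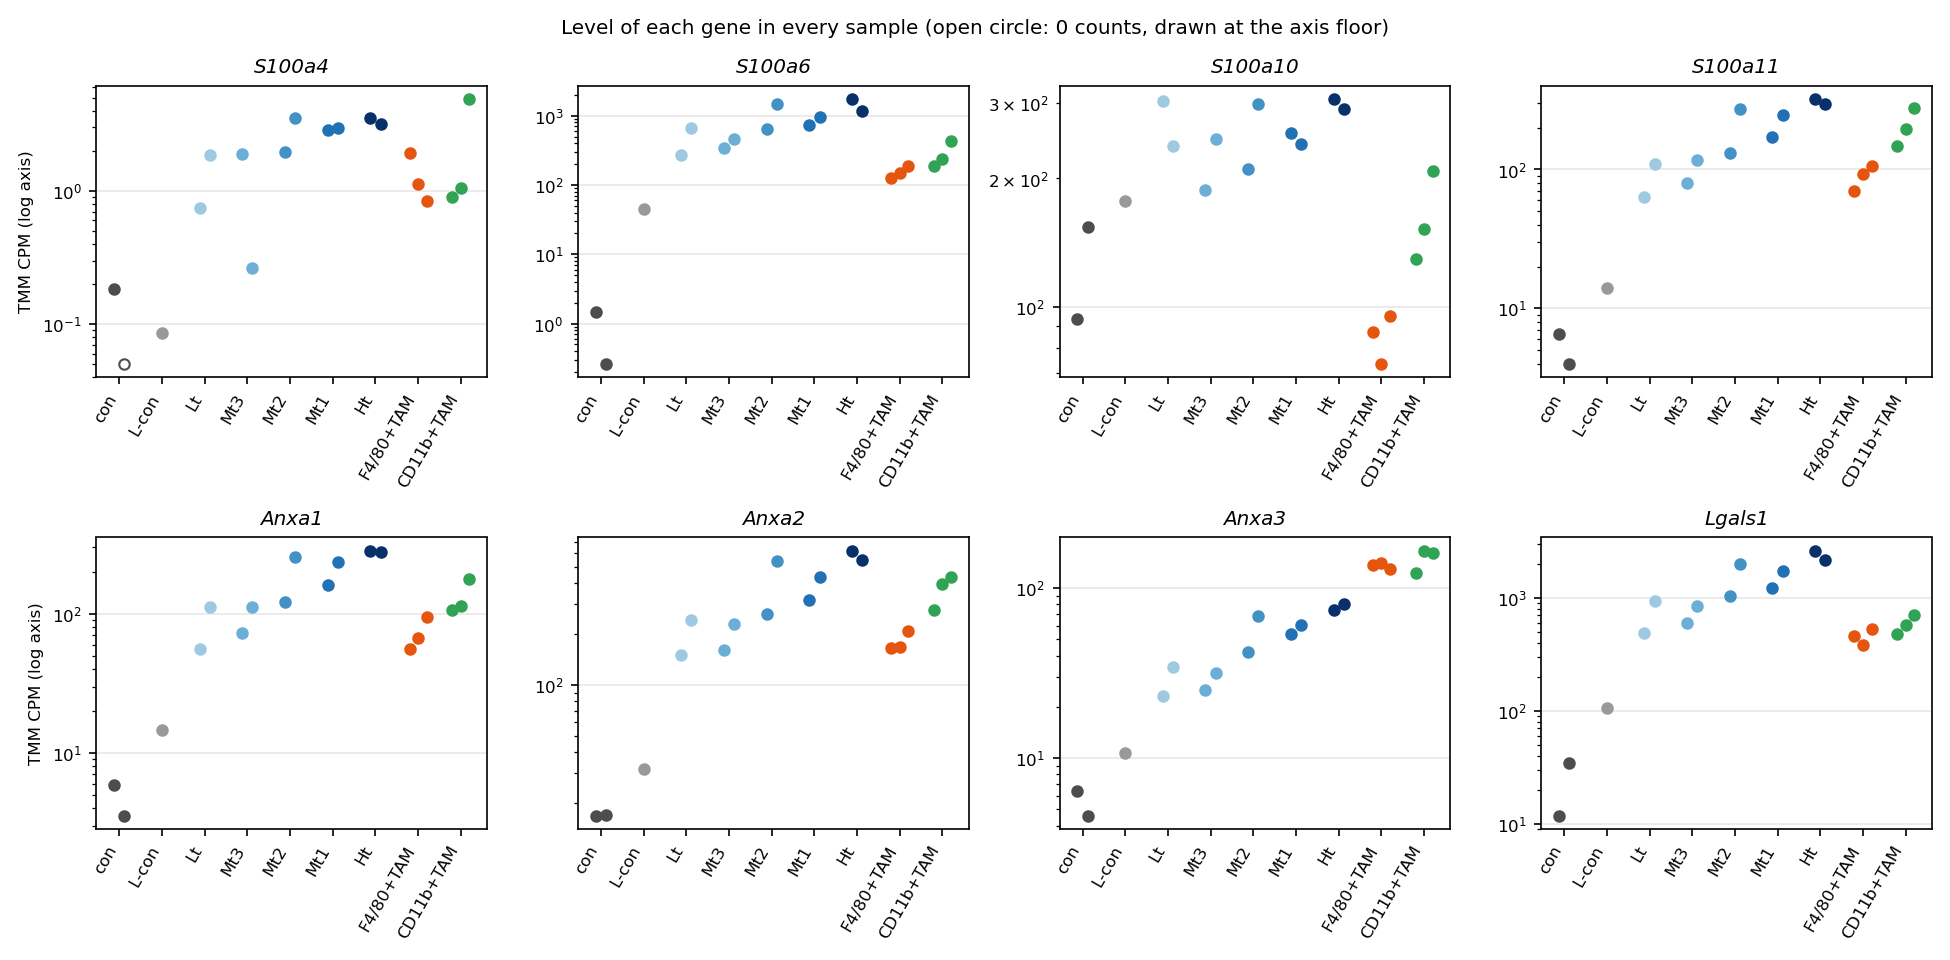
Level of each of the 8 genes (TMM CPM, log axis) in every sample, with groups on the horizontal axis and each point a sample and an open circle for 0 counts. All 8 genes were lowest in con or L-con among the tissue samples, and Anxa3 was the gene whose sorted-cell samples, at 122 to 165 CPM, were above every tissue sample.

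S100a6 (ENSMUSG00000001025, chromosome 3, 90612882 to 90624181) encodes calcyclin, an S100 protein that binds the calcyclin-binding protein. It was nearly absent from normal liver, at 1.46 and 0.259 CPM (16 and 3 counts) in con. It reached 45.8 CPM in L-con, 273 and 669.8 (Lt), 347 and 464 (Mt3), 647 and 1465 (Mt2), 734 and 955 (Mt1), and 1731 and 1189 (Ht). Sorted F4/80+TAM held 126, 151 and 185 CPM, and CD11b+TAM 187, 234 and 436 CPM. No sample of any metastasis or sorted group came near con, and L-con lay between con and the others. From low to high, the group means ran con, L-con, F4/80+TAM, CD11b+TAM, Mt3, Lt, Mt1, Mt2 and Ht. The neighbours CD11b+TAM and Mt3, Mt3 and Lt, Mt1 and Mt2, and Mt2 and Ht overlapped. S100a6 rose from con to Lt by a log2 fold change of 9.10 (95% interval 7.06 to 11.15, adjusted p = 0.00132 in edgeR) and from con to Ht by 10.71 (8.55 to 12.87, adjusted p = 9.16e-05 in edgeR). All 4 samples of Lt and Ht were above both con samples, and both folds rest on 19 counts in con. Without con replicate 1 the changes to Lt and Ht were 10.79 and 12.42, without con replicate 2 they were 8.31 and 9.93, and without Lt replicate 2 that to Lt was 8.31.

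S100a4 (ENSMUSG00000001020, chromosome 3, 90603771 to 90606045) encodes an S100 protein that binds the heavy chain of non-muscle myosin. Its counts were low everywhere: 2 and 0 in con and 1 in L-con, and in CPM 0.746 and 1.87 (Lt), 1.89 and 0.262 (Mt3), 1.95 and 3.55 (Mt2), 2.85 and 2.96 (Mt1), and 3.54 and 3.18 (Ht). F4/80+TAM held 1.92, 1.13 and 0.838 CPM, and CD11b+TAM 0.901, 1.06 and 4.87. Metastasis samples were above con without overlap, whereas Mt3 replicate 2, with 4 counts, was close to it. Of the 584 exon bases of S100a4, 302 (51.7%) also belong to Gm42674, a read-through gene on the same strand, which itself has 2 counts in all tissue libraries together. How reads on bases of more than 1 gene were counted is not given, so the level of S100a4 is uncertain. By summed counts, Lt was 15.1 times con (counting interval 3.89 to 129) and Ht was 38.5 times con (10.5 to 319). From con to Ht it rose by a fitted log2 fold change of 5.12 (2.53 to 7.72, adjusted p = 0.00378 in edgeR), with 2 of 2 Ht samples above con. From con to Lt it was not called (3.79, 1.02 to 6.56, adjusted p = 0.0728 in edgeR), although 2 of 2 Lt samples were above con. DESeq2 called it (3.80, adjusted p = 0.0209 in DESeq2), as did edgeR with no filter (3.79). Without con replicate 1 the fitted change was 7.71 to Lt and 9.06 to Ht, and without con replicate 2 it was 2.79 and 4.13. Without Mt3 replicate 1 or Mt3 replicate 2, which share the estimate of the spread, S100a4 was called from con to Lt (log2 fold change 3.80 in both, adjusted p = 0.0362 and 0.0357 in edgeR).

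S100a10 (ENSMUSG00000041959, chromosome 3, 93555080 to 93564643) encodes the partner of annexin A2, and its protein has lost the ability to bind calcium. It was the member already abundant in normal liver, at 93.8 and 154 CPM in con and 178 CPM in L-con. Its level was 304 and 238 CPM in Lt, 188 and 247 (Mt3), 210.5 and 299.5 (Mt2), 255 and 241 (Mt1), and 307 and 292 (Ht). In sorted cells it was 87.1, 73.3 and 95.2 CPM in F4/80+TAM and 129.6, 152 and 208 CPM in CD11b+TAM. Metastasis samples lay above both con samples, and F4/80+TAM lay at or under con. In rising order the means ran F4/80+TAM, con, CD11b+TAM, L-con, Mt3, Mt1, Mt2, Lt and Ht, and apart from L-con and Mt3 each group overlapped the next. S100a10 rose from con to Ht by a log2 fold change of 1.26 (0.60 to 1.92, adjusted p = 0.00448 in edgeR) and from con to Lt by 1.14 (0.48 to 1.79, adjusted p = 0.0308 in edgeR). Without con replicate 1 the change from con to Ht was 0.95 and was not called. From con to Lt the call was lost without con replicate 1 (log2 fold change 0.82), Lt replicate 1 (0.94), Lt replicate 2 (1.29), Ht replicate 1 (1.14) or Ht replicate 2 (1.14), with adjusted p from 0.0571 to 0.181 in edgeR.

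Anxa2 (ENSMUSG00000032231, chromosome 9, 69453620 to 69491795) encodes annexin A2, a membrane-binding protein that serves as a surface receptor for plasminogen and its activator. Its level was 16.8 and 17.0 CPM in con, 32.0 in L-con, 149.8 and 243 (Lt), 161 and 230.0 (Mt3), 264 and 539.9 (Mt2), 316 and 436 (Mt1), and 621 and 549 (Ht). F4/80+TAM had 165, 168 and 209.5 CPM, and CD11b+TAM 276, 393 and 433. The con samples were lowest, Ht highest, and the 3 F4/80+TAM samples were all below the 3 CD11b+TAM samples. The means rose in the order con, L-con, F4/80+TAM, Mt3, Lt, CD11b+TAM, Mt1, Mt2 and Ht, with overlap between F4/80+TAM and Mt3, Mt3 and Lt, CD11b+TAM and Mt1, and Mt1 and Mt2. From con to Lt it rose by a log2 fold change of 3.54 (2.60 to 4.48, adjusted p = 0.00174 in edgeR), and from con to Ht by 5.09 (4.08 to 6.11, adjusted p = 9.02e-05 in edgeR), in 4 of 4 samples.

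S100a10 and Anxa2 thus moved by different amounts. The ratio of S100a10 to Anxa2 in FPKM was 17.1 and 27.8 in con, 17.1 in L-con, 6.24 and 3.02 (Lt), 3.60 and 3.30 (Mt3), 2.46 and 1.71 (Mt2), 2.49 and 1.70 (Mt1), and 1.52 and 1.64 (Ht). It lay between 1.34 and 1.62 in F4/80+TAM and between 1.19 and 1.48 in CD11b+TAM. Liver without tumor therefore had a ratio of S100a10 to Anxa2 RNA that no metastasis or sorted sample reached. As a ratio within a sample, this value does not depend on the scaling of the libraries, and it was not tested. Its size, unlike its change between groups, depends on the deposited gene lengths, 1212 bases for S100a10 and 3731 bases for Anxa2.

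S100a11 (ENSMUSG00000027907, chromosome 3, 93520488 to 93526287) encodes an S100 protein that binds annexin A1. It measured 6.59 and 3.97 CPM in con and 13.99 CPM in L-con, and among metastases 62.9 and 110.3 (Lt), 79.5 and 117 (Mt3), 131 and 273 (Mt2), 172 and 245 (Mt1), and 320.3 and 295 (Ht). Sorted cells held 70.4, 93.3 and 107 CPM in F4/80+TAM and 147, 194 and 276 CPM in CD11b+TAM. Each metastasis sample was above con and L-con, and Ht was above every other tissue sample. Ordered by mean, the groups were con, L-con, Lt, F4/80+TAM, Mt3, Mt2, CD11b+TAM, Mt1 and Ht, with overlap from Lt to Mt3 and from Mt2 to Mt1. S100a11 rose from con to Lt by a log2 fold change of 4.04 (2.95 to 5.13, adjusted p = 0.00178 in edgeR) and from con to Ht by 5.85 (4.68 to 7.02, adjusted p = 9.16e-05 in edgeR), in 4 of 4 samples.

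Anxa1 (ENSMUSG00000024659, chromosome 19, 20373428 to 20390944) encodes annexin A1, a glucocorticoid-induced protein that restrains phospholipase A2 and signals through formyl peptide receptors. Its level followed that of S100a11 closely: 5.86 and 3.54 CPM in con, 14.7 in L-con, 56.2 and 111 (Lt), 72.7 and 112 (Mt3), 121 and 256 (Mt2), 161 and 235 (Mt1), and 284 and 279.9 (Ht). Sorted F4/80+TAM had 55.9, 66.8 and 95.1 CPM, and CD11b+TAM 106, 114 and 178. Con was lowest and Ht highest without overlap. The rising order was con, L-con, F4/80+TAM, Lt, Mt3, CD11b+TAM, Mt2, Mt1 and Ht, and every pair of neighbours from F4/80+TAM to Mt1 overlapped. Anxa1 rose by a log2 fold change of 4.16 from con to Lt (2.99 to 5.33, adjusted p = 0.00190 in edgeR) and of 5.89 from con to Ht (4.64 to 7.14, adjusted p = 9.88e-05 in edgeR), in 4 of 4 samples. Without Lt replicate 2 the change to Lt was 3.58.

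The S100a11 to Anxa1 ratio in FPKM stayed within 4.86 to 5.76 in all 13 tissue samples, while both genes changed more than 50-fold in level between con and Ht. In sorted cells the ratio was 6.42, 7.13 and 5.73 in F4/80+TAM and 7.03, 8.66 and 7.92 in CD11b+TAM. All 3 CD11b+TAM samples were above the tissue range, and F4/80+TAM replicate 3 lay within it. These S100 and annexin pairs therefore behaved differently, the S100a10 to Anxa2 ratio changing more than 10-fold between con and Ht.

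**Figure D2:**
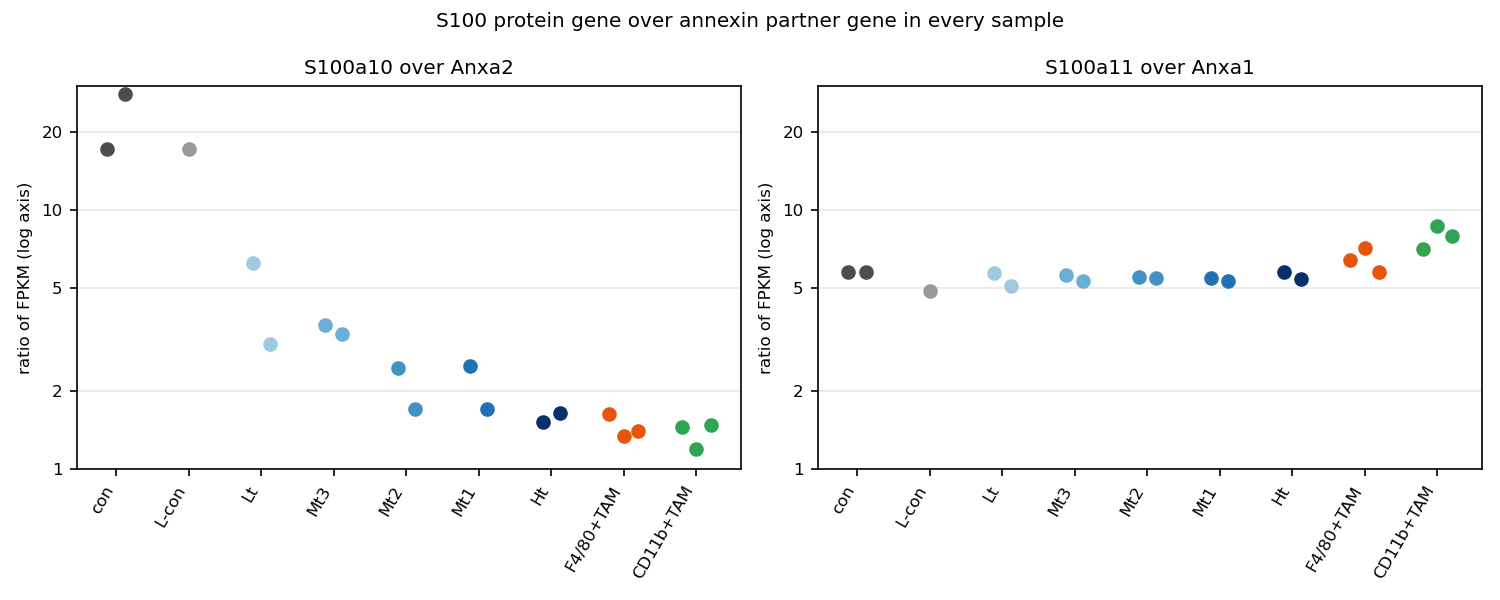
Ratio of S100a10 to Anxa2 (left) and of S100a11 to Anxa1 (right) in FPKM, log axis, with each point a sample. On the left con lies at 17.1 and 27.8 and Ht at 1.52 and 1.64, and on the right all tissue samples lie between 4.86 and 5.76.

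Anxa3 (ENSMUSG00000029484, chromosome 5, 96793339 to 96845966) encodes annexin A3, a calcium-dependent membrane-binding protein found in granules of neutrophils. Its tissue levels were 6.41 and 4.57 CPM in con, 10.7 in L-con, 23.3 and 34.2 (Lt), 25.0 and 31.5 (Mt3), 42.2 and 68.5 (Mt2), 53.8 and 60.8 (Mt1), and 74.0 and 80.3 (Ht). F4/80+TAM held 136, 140.0 and 129.7 CPM, and CD11b+TAM 122, 165 and 162 CPM. Unlike the other 7 genes, Anxa3 was higher in each sorted sample than in each tissue sample. The order of means was con, L-con, Mt3, Lt, Mt2, Mt1, Ht, F4/80+TAM and CD11b+TAM, with overlap between Mt3 and Lt, Mt2 and Mt1, and the sorted groups. Anxa3 rose by a log2 fold change of 2.39 from con to Lt (1.71 to 3.08, adjusted p = 0.00197 in edgeR) and of 3.80 from con to Ht (3.08 to 4.51, adjusted p = 9.02e-05 in edgeR), in 4 of 4 samples.

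Lgals1 (ENSMUSG00000068220, chromosome 15, 78926725 to 78930465) encodes galectin-1. It measured 11.7 and 34.3 CPM in con, 107 in L-con, 490.0 and 943 (Lt), 599 and 846 (Mt3), 1047 and 1996 (Mt2), 1220.0 and 1733 (Mt1), and 2611 and 2177 (Ht). F4/80+TAM had 454, 381 and 526.2 CPM, and CD11b+TAM 475, 576 and 697 CPM. Ht was above all other samples, con was below all others, and the sorted groups overlapped each other and Lt. Means rose in the order con, L-con, F4/80+TAM, CD11b+TAM, Lt, Mt3, Mt1, Mt2 and Ht, with overlap from F4/80+TAM to Mt3 and between Mt1 and Mt2. Lgals1 rose by a log2 fold change of 4.97 from con to Lt (3.50 to 6.44, adjusted p = 0.00212 in edgeR) and of 6.69 from con to Ht (5.09 to 8.28, adjusted p = 0.000132 in edgeR), in 4 of 4 samples. Without con replicate 1 these were 4.38 and 6.11, and without con replicate 2 they were 5.92 and 7.65.

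Normal liver and low-content metastases differed at nearly all of these genes. From con to Lt, 7 of 8 were called higher and 0 lower, beside 12.4% of 17187 genes called higher (2133, and 1410 without con replicate 1, 720 without con replicate 2 and 914 without Lt replicate 2). The median log2 fold change of the 8 was 3.92, or 3.98 with S100a4 put at its counting ratio, against 0.10 over all genes. From con to Ht, 8 of 8 were called higher, beside 25.8% of all genes, with a median of 5.49, or 5.56 with that ratio, against 0.09. Both comparisons share the con samples. With libraries scaled by total counts, the median of all genes moved to 0.40 from con to Lt, 0.33 from Lt to Mt, 0.55 from Mt to Ht, 1.28 from con to Ht and 0.87 from Lt to Ht, and no member changed its direction against con. A minimum of 10 counts in every sample removed S100a4 and S100a6 from the test.

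Low- and medium-content metastases overlapped at each of the 8 genes. From Lt to the mean of Mt3, Mt2 and Mt1, 0 of 8 genes were called by edgeR, beside 0% of all genes, and DESeq2 called 0 of the 8 as well. Without Mt2 replicate 1, edgeR called 171 genes higher and 607 lower in this comparison, and still 0 of the 8. At an unadjusted p under 0.05 there were 2 of 8, S100a11 (log2 fold change 0.87, 0.06 to 1.68) and Anxa3 (0.62, 0.09 to 1.15), and 3282 of 17187 genes in all, a similar share. S100a10 had -0.20 (-0.72 to 0.33), and 0.18 with total-count scaling, where the all-gene median was 0.33. Without Lt replicate 1 its value was 0.00, and without Mt3 replicate 1 that of S100a4 was -0.05 in place of 0.62.

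From Mt to Ht, 0 of 8 genes were called by edgeR, beside 1.5% of all genes called higher and 13.4% called lower. Without Ht replicate 1 or Ht replicate 2, 0 of all genes were called. All 8 log2 fold changes were positive, between 0.32 for S100a10 (-0.20 to 0.84) and 1.03 for S100a6 (-0.04 to 2.11), with a median of 0.91 against 0.00 over all genes. At an unadjusted p under 0.05 there were 5 of 8, namely S100a11, Anxa1, Anxa2, Anxa3 and Lgals1, and 6982 of 17187 genes in all. Anxa3 passed on adjusted p (0.0320 in edgeR) with a log2 fold change of 0.78 (0.30 to 1.26), under the threshold. DESeq2 called 1, Lgals1, at 1.08. With total-count scaling 6 were called, S100a6 (1.54), S100a11 (1.44), Anxa1 (1.40), Anxa2 (1.42), Anxa3 (1.30) and Lgals1 (1.53), beside 2587 of 17187 genes called higher and an all-gene median of 0.55. Without Mt2 replicate 2, 5 of 8 were called: S100a6 (1.27), S100a11 (1.14), Anxa1 (1.11), Anxa2 (1.12) and Lgals1 (1.21), beside 810 of 17070 genes called higher. Without Mt1 replicate 2, which has as few hepatocyte counts, the gene called was Anxa2 (1.00), beside 403 of 17001 genes.

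Low- and high-content metastases were further apart. From Lt to Ht, 5 of 8 genes were called higher, beside 11.7% of all genes called higher (2004) and 20.2% called lower (3476): S100a11 (log2 fold change 1.81), Anxa1 (1.73), Lgals1 (1.72), Anxa2 (1.55) and Anxa3 (1.40), with adjusted p from 0.00515 to 0.0343 in edgeR. Both Ht samples were above both Lt samples for each of these genes, and also for S100a6 and S100a4, which were not called. The share of all genes separated in this way was not counted. S100a6 had 1.61 (0.19 to 3.03, adjusted p = 0.0640 in edgeR), S100a4 1.33 (-0.42 to 3.08) and S100a10 0.12 (-0.52 to 0.77). S100a6 was called by DESeq2 (1.71), with no filter (1.73), with Lt and Ht alone in the fit (1.64), with Ht as 3 libraries (1.72), without Ht_3 (1.84) and with totals without the hepatocyte list (2.29). With total-count scaling S100a6 (2.44), S100a4 (2.18) and S100a10 (1.03) were all called, and S100a4 was called with no filter (1.45). Over all genes, 612 were called higher and 2174 lower without Lt replicate 1, 1034 and 2123 without Ht replicate 1, and 1128 and 2405 without Ht replicate 2. Without Lt replicate 1 the call was kept by Anxa3, and the others were S100a11 (1.47), Anxa1 (1.33), Anxa2 (1.26) and Lgals1 (1.33). Without Ht replicate 1, Anxa1 (1.72), Anxa2 (1.46) and Lgals1 (1.58) were not called, and without Ht replicate 2, Anxa1 (1.74) and Lgals1 (1.85) were not. S100a6 was called without con replicate 1 (1.62), con replicate 2 (1.62), Lt replicate 2 (2.40), Mt2 replicate 1 (1.66) or Mt2 replicate 2 (1.61). Without Lt replicate 2, S100a10 was -0.03, Anxa1 2.31 and S100a4 2.15, and without Lt replicate 1 S100a4 was 0.84. This comparison shares the Lt samples with that from con to Lt and the Ht samples with that from con to Ht.

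**Figure D3:**
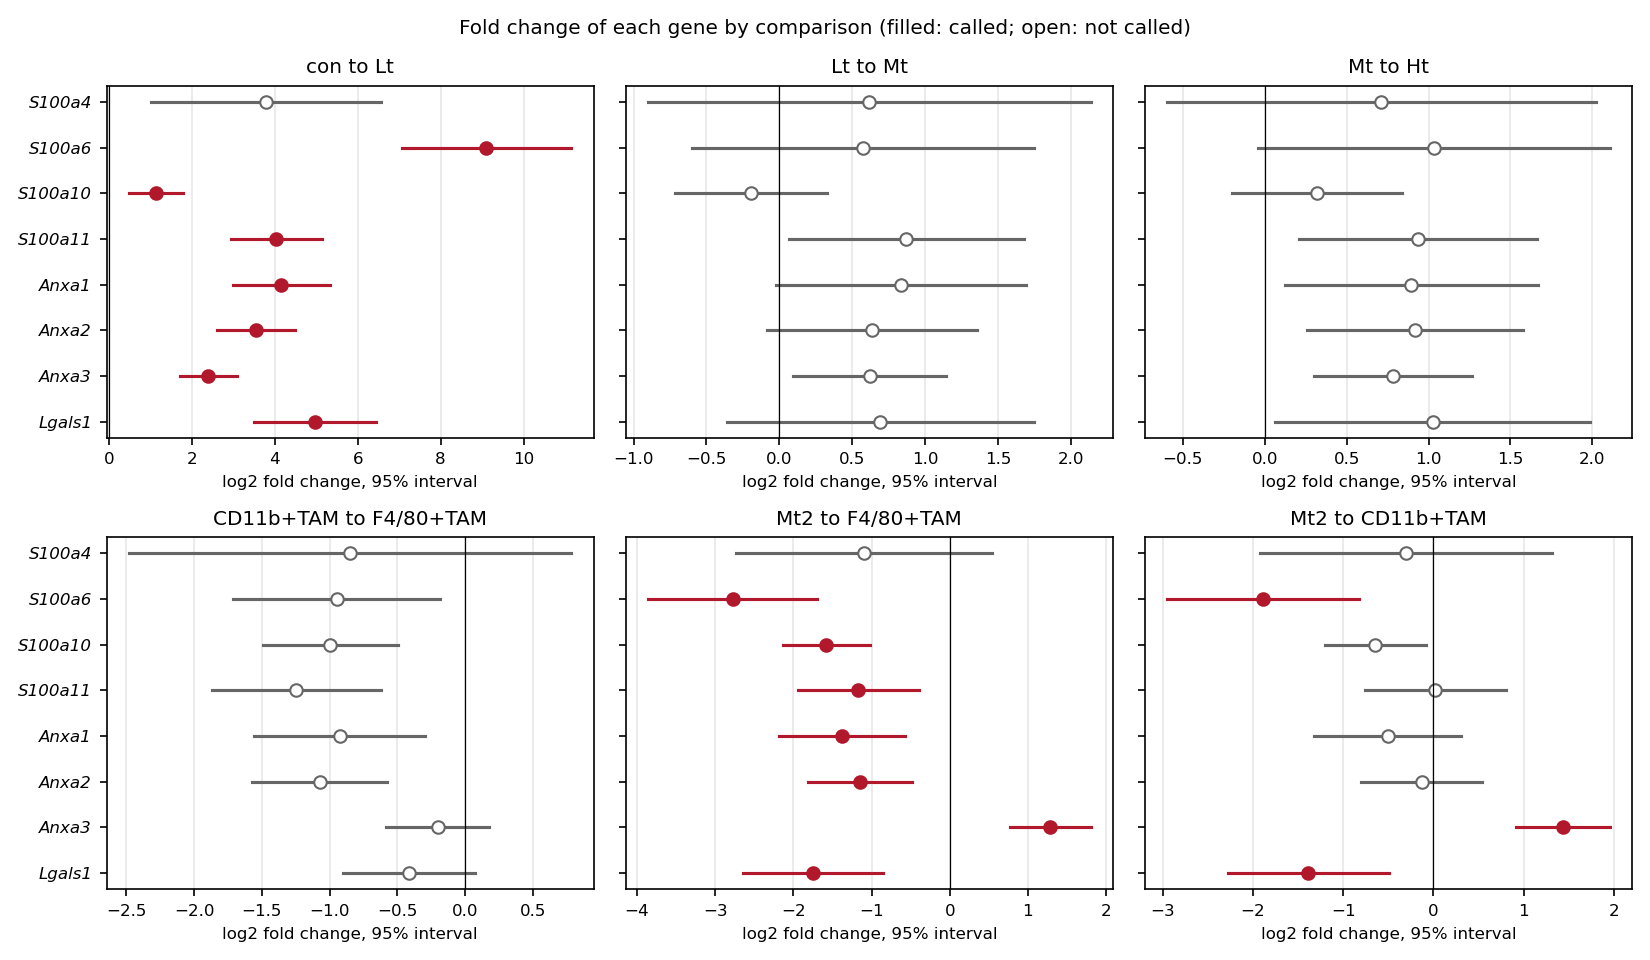
Log2 fold change of each gene with its 95% interval (horizontal axis) in 6 comparisons, filled where the gene was called. From con to Lt 7 genes were called, from Lt to Mt and from Mt to Ht 0 were called, and against Mt2 Anxa3 was higher in both sorted groups.

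Marker genes of several cell types moved with these differences. Of the 12 hepatocyte genes, 12 were called lower from Mt to Ht, 12 from Lt to Ht and 12 from con to Ht, the last beside 24.1% of all genes, and 0 from con to Lt. Without Ht replicate 1 or Ht replicate 2 the calls from Mt to Ht were 0. Their summed level was 210826 and 172372 CPM in con, 168582 in L-con, 183092 and 101161 (Lt), 141580.0 and 112093 (Mt3), 108220.0 and 29698 (Mt2), 106964 and 28635 (Mt1), and 4115 and 6059 (Ht), with Alb the most abundant and none at 0. Of the 10 fibroblast and stellate genes, 7 were called higher from con to Lt, beside 12.4% of all genes, and 7 from con to Ht, beside 25.8%, where Lrat was called lower. From Lt to Ht, 4 were called higher, beside 11.7%, Col1a1 (log2 fold change 1.92), Col3a1 (1.72), Pdgfra (2.02) and Pdgfrb (1.10), and Lrat lower (-2.12). They summed to 423 and 304 CPM in con, 721 in L-con, 1679 and 3168 (Lt), 2403 and 2815 (Mt3), 3529 and 5718 (Mt2), 3681 and 7244 (Mt1), and 7307 and 6472 (Ht), with Col3a1 the most abundant in metastases and none at 0. Within Mt, Mt2 replicate 2 and Mt1 replicate 2, which had the fewest hepatocyte counts, were above the other 4 libraries for 7 of the 8 genes, the exception being S100a10, and for 4814 of 17187 genes in all.

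Of the 9 macrophage genes, 5 were called higher from con to Lt, beside 12.4% of all genes, and 7 from con to Ht, beside 25.8%. From Lt to Ht, 2 were called higher, beside 11.7%. Their sum was 663 and 446 CPM in con, 1026 in L-con, 1009 and 1415 (Lt), 1025 and 1357 (Mt3), 1391 and 1843 (Mt2), 1887 and 1698 (Mt1), and 2246 and 2258 (Ht), with C1qb the most abundant in both Lt and both Ht samples and none at 0. Of the 6 monocyte genes, 5 were called higher from con to Lt and 6 from con to Ht, beside the same shares, and 1 from Lt to Ht. They summed to 14.3 and 10.1 CPM in con, 70.2 in L-con, 129.5 and 314 (Lt), 129 and 273 (Mt3), 147 and 297 (Mt2), 217 and 240.3 (Mt1), and 189 and 240.5 (Ht), with Ccr2 the most abundant in Ht and Chil3 at 0 in con replicate 2. Of the 8 T and NK genes, 4 were called higher from con to Ht, beside 25.8% of all genes, and they summed to 13.1 and 3.62 CPM in con and 25.8 and 35.2 CPM in Ht. Of 7 neutrophil genes tested, 2 were called higher from con to Lt, beside 12.4%, and 2 from con to Ht, near the 25.8% there. From Lt to Ht and from Mt to Ht Retnlg was called lower, 1 of 7 beside 20.2% and 13.4%. Neutrophil sums were 3.57 and 1.81 CPM in con, 10.8 and 16.9 (Lt), 9.75 and 12.9 (Mt3), 11.3 and 18.3 (Mt2), 27.2 and 35.6 (Mt1), and 12.8 and 18.7 (Ht).

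Kupffer cell markers, and part of the epithelial and endothelial ones, were called lower in Ht. Over all genes 13.4% were called lower from Mt to Ht, 20.2% from Lt to Ht and 24.1% from con to Ht, and the calls from Mt to Ht were 0 without Ht replicate 1 or Ht replicate 2. Of the 5 Kupffer cell genes, 5 were called lower from Mt to Ht, 5 from Lt to Ht and 3 from con to Ht. Their sum was 445 and 333 CPM in con, 953 CPM in L-con, 759.9 and 720.4 (Lt), 573 and 753 (Mt3), 686 and 299 (Mt2), 985 and 273 (Mt1), and 74.5 and 130.2 (Ht), with Cd5l the most abundant outside con and none at 0. Of the 9 epithelial genes, 8 were tested, and 4 were called lower from Mt to Ht, 5 from Lt to Ht and 3 from con to Ht. They summed to 584 and 536 CPM in con, 618 CPM in L-con, 827 and 457 (Lt), 567 and 448 (Mt3), 530.4 and 421 (Mt2), 1029 and 605 (Mt1), and 118 and 227 (Ht), with Krt8 the most abundant and Krt20 at 0 in 11 of the 13 tissue samples. Of the 9 endothelial genes, 3 were called lower in each of these comparisons, Kdr, Tek and Stab2, near the share over all genes from con to Ht, and the 9 summed to 434 and 381 CPM in con, 424 CPM in L-con, 374 and 339 (Lt), 381 and 353 (Mt3), 362 and 217 (Mt2), 309.6 and 278 (Mt1), and 189 and 198 (Ht), with Cdh5 the most abundant in Ht and none at 0. Part of these calls depends on the scaling. As log2 ratios of mean levels scaled by total counts, from con to Ht Vsig4 (-0.58), Cd5l (-0.59), Krt8 (-0.39), Krt18 (-0.29), Kdr (-0.70) and Lrat (-0.30) came under the threshold, and Clec4f (-1.16), Cdh1 (-2.56), Tek (-1.13) and Stab2 (-2.31) did not. From Lt to Ht, Epcam (-0.90), Krt8 (-0.87), Krt18 (-0.92), Cldn7 (-0.32) and Kdr (-0.53) did, which leaves Cdh1 (-2.38) of the epithelial genes. From Mt to Ht, Epcam (-0.60), Kdr (-0.64), Tek (-0.90) and Lrat (-0.87) did, and all 5 Kupffer cell genes stayed past it in these last comparisons. The part of these cell types, and of hepatocytes, fibroblasts, macrophages, monocytes, neutrophils, T cells and NK cells, in the differences of the 8 genes was not tested. No marker list was made for the MC38 tumor cells, and their part was not tested either.

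RNA of all 8 genes was found in the preparations sorted from Mt2 metastases. These preparations also held fibroblast and hepatocyte marker RNA, given below. The part of RNA carried over from other cells was not tested. Against Mt2, 6 of the 8 were called lower in F4/80+TAM, beside 25.2% of all genes. In CD11b+TAM 2 of the 8 were called lower, near the 26.3% over all genes. Kind of sample and count table cannot be told apart in these comparisons. From Mt2 to F4/80+TAM, 1 of 8 genes was called higher, beside 17.2% of 18407 genes, and 6 were called lower, beside 25.2%. Anxa3 was the gene called higher, by a log2 fold change of 1.29 (0.77 to 1.80), in 3 of 3 sorted samples above both Mt2 samples. The genes called lower were S100a6 (-2.78), Lgals1 (-1.75), S100a10 (-1.58), Anxa1 (-1.38), S100a11 (-1.17) and Anxa2 (-1.15), with adjusted p from 0.000139 to 0.0134 in edgeR, and S100a4 was not called (-1.10, -2.73 to 0.54). Without Mt2 replicate 2, S100a6 had -2.03, and S100a11 (-0.50), Anxa1 (-0.70), Anxa2 (-0.50) and Lgals1 (-1.16) were not called. Without Mt2 replicate 1, Anxa3 had 0.98 and was not called, and without F4/80+TAM replicate 1, S100a11 (-1.02) was not.

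Against Ht, which holds the least hepatocyte RNA of the tissue groups, F4/80+TAM had 0 genes called higher by edgeR, beside 18.5% of all genes, and 6 called lower, beside 21.1%. They were S100a6 (-3.25), Lgals1 (-2.40), Anxa1 (-1.96), S100a10 (-1.81), S100a11 (-1.77) and Anxa2 (-1.69), and the count was 6 whichever of the 5 samples was left out. With no filter S100a4 was called lower too (-1.51). At an unadjusted p under 0.05 Anxa3 was higher by 0.81 (0.30 to 1.31, adjusted p = 0.0107 in edgeR), under the fold threshold, and DESeq2 also called 6. Scaling by total counts moved the all-gene median to -0.42 in this comparison and to -0.43 from Ht to CD11b+TAM. All 3 F4/80+TAM samples were above both Ht samples for Anxa3.

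From Mt2 to CD11b+TAM, Anxa3 was called higher (log2 fold change 1.43, 0.91 to 1.95), 1 of 8 beside 17.6% of all genes. S100a6 (-1.89, -2.95 to -0.82) and Lgals1 (-1.38, -2.28 to -0.49) were called lower, 2 of 8, near the 26.3% over all genes. Without Mt2 replicate 2, S100a6 (-1.15) and Lgals1 (-0.81) were not called. From Ht to CD11b+TAM, 0 of 8 were called higher by edgeR, beside 18.8%, and 3 lower, beside 22.4%: S100a6 (-2.35, -3.42 to -1.28), Lgals1 (-2.04, -2.94 to -1.14) and Anxa1 (-1.08, -1.89 to -0.28). Anxa3 passed on adjusted p (0.00369 in edgeR) with a log2 fold change of 0.96 (0.45 to 1.47), under the fold threshold. S100a10 likewise passed on adjusted p (0.0113 in edgeR) with -0.87 (-1.43 to -0.32), under that threshold in size. DESeq2 also called 3 in all. Anxa1 was not called without Ht replicate 1 (-1.05), Ht replicate 2 (-1.06), CD11b+TAM replicate 1 (-0.91) or CD11b+TAM replicate 2 (-0.96). Anxa3 was called without Ht replicate 2 (1.05) or CD11b+TAM replicate 1 (1.12). Without CD11b+TAM replicate 3, the sample with the most neutrophil markers, S100a4 (-1.77) and S100a10 (-1.08) were called lower as well. Scaled by total counts, S100a10 (-1.37), S100a11 (-1.09) and Anxa2 (-1.16) were called lower too. The 4 comparisons of sorted cells with tissue share their sorted or their tissue samples.

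Markers of other cell types moved with these differences between sorted cells and tissue. Over all genes, 17.2% were called higher and 25.2% lower from Mt2 to F4/80+TAM, and 18.5% and 21.1% from Ht to F4/80+TAM. To CD11b+TAM these shares were 17.6% and 26.3% from Mt2 and 18.8% and 22.4% from Ht. All 10 fibroblast and stellate genes were called lower in F4/80+TAM than in Mt2 (median log2 fold change -4.52) and Ht (-4.49), and in CD11b+TAM than in Mt2 (-4.47) and Ht (-4.74). They summed to 361, 416 and 549 CPM in F4/80+TAM and 324, 215 and 173 CPM in CD11b+TAM, with Col3a1 the most abundant and none at 0. All 9 macrophage genes were called higher in the same 4 comparisons, with medians of 3.18 and 2.69 for F4/80+TAM and 3.07 and 2.77 for CD11b+TAM against Mt2 and Ht. Of the 8 neutrophil genes, 8 were called higher in CD11b+TAM than in Mt2 (median 6.87) and Ht (7.19), and 6 in F4/80+TAM than in Mt2 (3.86) and Ht (4.12). All 6 monocyte genes were called higher in the same 4 comparisons, and they summed to 1379.9, 1966 and 1943 CPM in F4/80+TAM and 1899, 2120.2 and 3268 CPM in CD11b+TAM. Of the 5 Kupffer cell genes, 5 were called higher from Ht to F4/80+TAM and 5 lower from Mt2 to CD11b+TAM. From Mt2 to F4/80+TAM 1 was called higher, near the share over all genes, and from Ht to CD11b+TAM 0 were called. Of 8 epithelial genes tested, 7 were called lower in F4/80+TAM than in Mt2 and Ht, and 6 and 5 in CD11b+TAM. Of 9 endothelial genes, 6 and 4 were called lower in F4/80+TAM and 8 and 7 in CD11b+TAM, and 1 was called higher from Ht to F4/80+TAM. Hepatocyte genes were called lower in 12 of 12 in 3 of these comparisons and in 11 of 12 from Ht to CD11b+TAM. The part of these cell types, and of tumor cells, in the levels of Anxa3, S100a6, Lgals1 and the other members was not tested.

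Fewer genes were called between the sorted populations than between sorted cells and tissue, in a separate fit of the sorted libraries alone. The sizes of the changes were not smaller throughout. The median log2 fold change of the 8 genes from CD11b+TAM to F4/80+TAM was -0.94. It was -1.27 from Mt2 and -1.79 from Ht to F4/80+TAM, and -0.41 from Mt2 and -0.77 from Ht to CD11b+TAM. From CD11b+TAM to F4/80+TAM, 0 of 8 genes were called by edgeR, beside 0.0771% of 14263 genes. Those 11 genes became 136 without CD11b+TAM replicate 3 and 0 without F4/80+TAM replicate 1, F4/80+TAM replicate 2 or CD11b+TAM replicate 2, and in each case 0 of the 8 were called. All 8 log2 fold changes were negative, from -0.20 for Anxa3 (-0.58 to 0.18) to -1.24 for S100a11 (-1.87 to -0.62), and 5 of 8 had an unadjusted p under 0.05, as had 1503 of 14263 genes. Those 5, S100a6, S100a10, S100a11, Anxa1 and Anxa2, were lower in each F4/80+TAM sample than in each CD11b+TAM sample, as were 8.71% of all genes. DESeq2 called 2 of 8 lower, S100a11 (-1.25) and Anxa2 (-1.08). S100a4 had -0.85 (-2.48 to 0.79), and 0.36 without CD11b+TAM replicate 3. Neutrophil markers summed to 157, 250.4 and 532 CPM in F4/80+TAM and 1119.7, 657 and 2356 CPM in CD11b+TAM, with Csf3r the most abundant in the F4/80+TAM samples, Ngp in 2 CD11b+TAM samples and Ly6g at 0 in F4/80+TAM replicate 1, and 0 of 8 were called between them. Kupffer cell markers, 0 of 5 called by edgeR and 5 of 5 at an unadjusted p under 0.05 (adjusted p 0.0580 to 0.0864 in edgeR), summed to 2347, 937 and 587 CPM in F4/80+TAM and 87.7, 110.3 and 51.7 CPM in CD11b+TAM, without overlap and with a median log2 fold change of 3.68. Clec4f was the most abundant of them in F4/80+TAM, Cd5l in CD11b+TAM, and none was at 0. Macrophage markers summed to 14199.9 to 15746 CPM in F4/80+TAM and 12646 to 19481 in CD11b+TAM. Hepatocyte markers summed to 218 to 382 CPM in F4/80+TAM and 85.0 to 247 in CD11b+TAM, with Alb the most abundant and Cps1 at 0 in CD11b+TAM replicates 1 and 2. Dendritic cell markers summed to 13.6, 28.7 and 19.4 CPM in F4/80+TAM and 75.5, 46.8 and 134 CPM in CD11b+TAM. Endothelial sums were 229, 188 and 112 CPM in F4/80+TAM and 52.0, 59.1 and 51.7 CPM in CD11b+TAM. Epithelial sums were 4.04, 4.96 and 4.63 CPM in F4/80+TAM and 13.4, 15.4 and 13.1 CPM in CD11b+TAM. Fibroblast and stellate sums, given above, did not overlap either, and edgeR called 0 genes of these lists. The part of neutrophils, Kupffer cells, tumor cells and these other cell types in the levels of the 8 genes was not tested.

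Other members of the S100, annexin and galectin families did not all move like these 8. Of 9 other S100 genes tested from con to Ht, 4 were called higher, S100a3, S100a5, S100a7a and S100a8, and 1 lower, S100a1 (log2 fold change -1.28), and the median was 2.14. Beside these counts, 25.8% of all genes were called higher and 24.1% lower. S100a3, S100a5 and S100a7a were at 0 counts in con and at most 109 counts in any sample. Of 7 other annexins, Anxa5 (1.52) and Anxa9 (1.16) were called higher, Anxa6 (-1.97) and Anxa13 (-3.45) lower, which is near the share over all genes, and the median was -0.41. Anxa5, the most abundant other annexin in Ht, had mean levels of 137 CPM in con and 397 CPM in Ht, and Anxa6 168 and 43.5 CPM. Of 5 other galectins, Lgals3 (3.63) and Lgals7 were called higher, Lgals4 (-2.16), Lgals8 (-1.68) and Lgals9 (-2.02) lower, and Lgals7 was at 0 counts in con. The lower calls depend on the scaling: as a log2 ratio of mean levels scaled by total counts, S100a1 was at -0.09, Anxa6 at -0.78, Lgals8 at -0.50 and Lgals9 at -0.83, all under the threshold, and Lgals4 was at -1.01 and Anxa13 at -2.29. From CD11b+TAM to F4/80+TAM, 0 of the other S100, annexin and galectin genes were called by edgeR.

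The partners and receptors of the 8 gene products include the plasminogen system that S100A10 and annexin A2 assemble. Of 20 such genes, 12 were called higher from con to Ht, beside 25.8% of all genes, and 1 lower, beside 24.1%, with a median of 1.81. Plat, which encodes tissue plasminogen activator, rose by a log2 fold change of 7.26, Plaur, the urokinase receptor, by 5.09, and Plau, which encodes urokinase, by 3.73. Plg, which encodes plasminogen and is made by hepatocytes, fell by 5.32 on the log2 scale, from means of 2796 CPM in con to 70.8 CPM in Ht. Cacybp, the calcyclin-binding protein, rose by 1.13, Myh9, a myosin heavy chain bound by S100A4, by 1.47, Fpr2, a receptor of annexin A1, by 1.66, and Ptprc, which encodes CD45, by 2.80. Adjusted p for these genes ran from 9.02e-05 to 0.00373 in edgeR. In F4/80+TAM, Plat (-4.42) was called lower than in Ht, whereas Plau (1.44), Plaur (1.55), Fpr1 (2.56) and Fpr2 (3.44) were called higher.

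Position separates the 4 S100 genes. S100a4 and S100a6 lie in a cluster on chromosome 3 between S100a1 at 90511034 and S100a9 at 90695721, with S100a5 between them. S100a11 and S100a10 lie 2824767 bases further on and are 28793 bases apart. S100a5, which starts 2478 bases after S100a4 and ends 1102 bases before S100a6, had a mean of 0 CPM in con and 0.437 CPM in Ht, where S100a6 had 1459.8 CPM. S100a8 and S100a9, which start 10309 and 22597 bases after their neighbours, had means of 2.21 and 1.79 CPM in Ht. In CD11b+TAM S100a8 was 247, 158 and 1309 CPM and S100a9 402, 269 and 1664 CPM, so that their means of 571 and 778 CPM became 202 and 335 CPM without replicate 3. In Ht, neighbours on the chromosome thus had levels far from that of S100a6. In CD11b+TAM, S100a6 was 187, 234 and 436 CPM, nearer to S100a8 and S100a9 in replicates 1 and 2 than in replicate 3. These values are CPM without division by length.

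**Figure D4:**
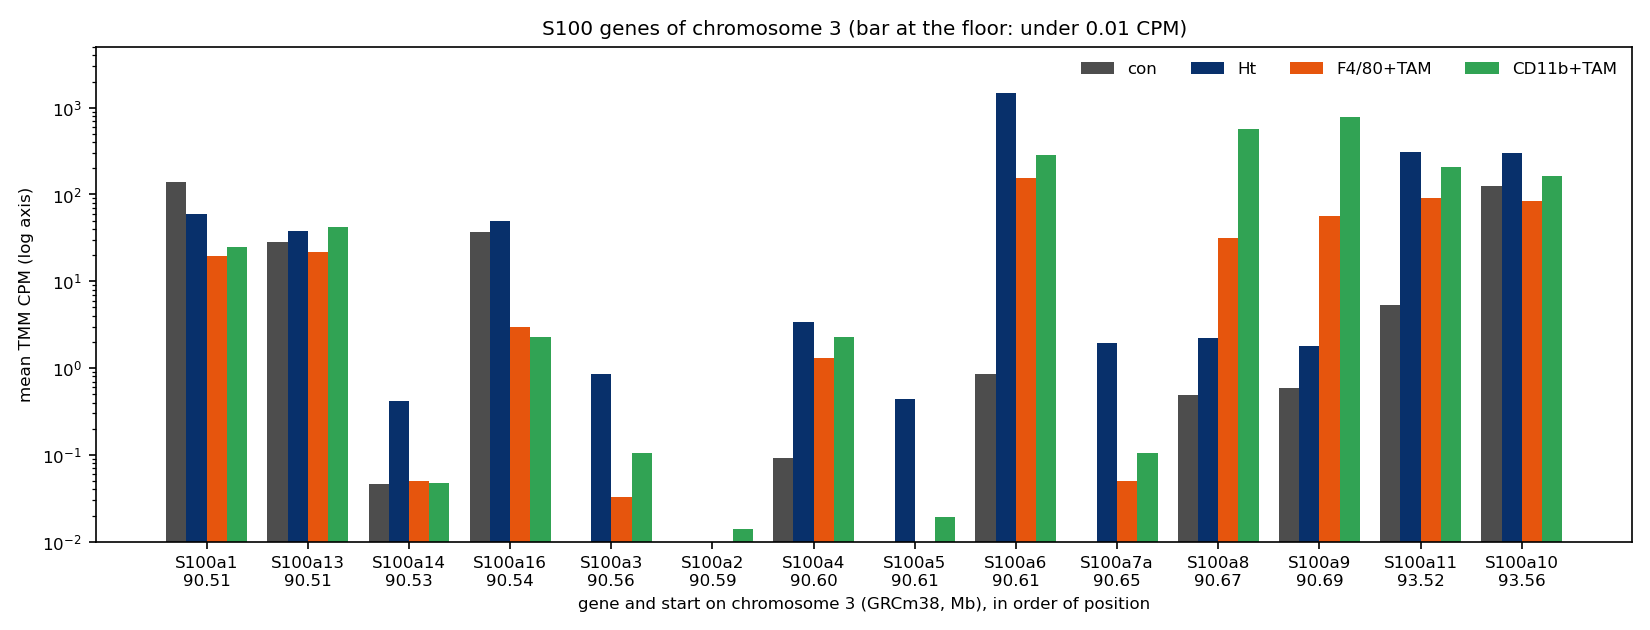
Mean level (TMM CPM, log axis) of the S100 genes of chromosome 3 in con, Ht, F4/80+TAM and CD11b+TAM, in order of position. S100a6 reached 1459.8 CPM in Ht, while S100a8 and S100a9 were at 571 and 778 CPM in CD11b+TAM, or 202 and 335 CPM without replicate 3.

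Promoter sequences were read for 5 of the 8 genes (RefSeq, GRCm38.p6), and those of S100a10, Anxa3 and Lgals1 were not analysed here. The sequences are shown as a description, and their relation to the levels of the genes was not tested. In 250 bases before to 50 after each start, 4 motifs were searched on both strands: the AP-1 motif TGANTCA, the GC box GGGCGG, the TATA box TATAAA and the CCAAT box CCAAT. Of 27025 promoters of the same length, 7.93% held the AP-1 letters, 35.9% the GC box, 14.2% the TATA box and 37.9% the CCAAT box. S100a11 held 2 AP-1 matches and 3 GC boxes, and Anxa2 held 1 AP-1 match, 3 GC boxes and 1 TATA box. S100a4 and Anxa1 each held 1 TATA box, which began 31 and 32 bases before the start, and S100a6 held 1 CCAAT box on the reverse strand. Distances are from the RefSeq start. A match is a description of the letters and not of binding. The run of Anxa2 ends before its TATA box and 2 of its GC boxes, which lie inside the gene by its Ensembl start, and no run is shown for Anxa1, whose window lies inside its Ensembl gene. The runs below are the bases outside the gene, 5′ to 3′ on the plus strand, with matches in capitals, from chr3:90603520-90603769 for S100a4, chr3:90612644-90612881 for S100a6, chr3:93520246-93520487 for S100a11 and chr9:69453433-69453619 for Anxa2.
S100a4: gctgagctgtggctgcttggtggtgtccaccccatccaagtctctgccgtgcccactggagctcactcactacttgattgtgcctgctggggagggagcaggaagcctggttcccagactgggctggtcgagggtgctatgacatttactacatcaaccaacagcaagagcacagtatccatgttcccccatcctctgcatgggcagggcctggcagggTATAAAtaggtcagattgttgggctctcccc
S100a6: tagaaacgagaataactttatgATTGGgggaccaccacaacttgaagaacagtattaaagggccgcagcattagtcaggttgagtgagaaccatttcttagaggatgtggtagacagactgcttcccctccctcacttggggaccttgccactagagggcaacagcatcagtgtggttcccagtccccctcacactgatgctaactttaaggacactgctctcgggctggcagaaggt
S100a11: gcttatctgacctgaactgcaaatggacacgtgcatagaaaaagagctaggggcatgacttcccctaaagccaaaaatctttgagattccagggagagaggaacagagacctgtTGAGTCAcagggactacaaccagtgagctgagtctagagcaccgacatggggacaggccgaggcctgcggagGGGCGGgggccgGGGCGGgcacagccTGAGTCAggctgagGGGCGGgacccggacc
Anxa2: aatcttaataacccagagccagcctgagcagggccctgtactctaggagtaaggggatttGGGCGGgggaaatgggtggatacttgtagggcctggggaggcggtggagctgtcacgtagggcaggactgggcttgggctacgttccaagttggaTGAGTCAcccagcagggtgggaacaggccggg

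The genes most like each member were found by Pearson r of log2(CPM + 1) over the 13 tissue samples. They were Myh9 (0.960), 2310009B15Rik (0.958) and Nemp1 (0.957) for S100a4, and Vcan (0.995), Tpx2 (0.994) and Grem1 (0.994) for S100a6. For S100a10 they were Morf4l2 (0.955), Med11 (0.935) and Esco2 (0.932), and for S100a11 Slc25a4 (0.999), Olfml2b (0.999) and Prrx1 (0.999). Anxa1 was closest to Prrx1 (0.999), Cd63 (0.999) and Serpinh1 (0.998), Anxa2 to Ccl12 (0.999), Bex3 (0.998) and Fkbp10 (0.998), Anxa3 to Mcm6 (0.998), Lig1 (0.998) and Msln (0.997), and Lgals1 to Cdca8 (0.994), Kif20a (0.994) and Plat (0.994). The mean profile of the 8 genes was closest to Emp3 (0.997), Pimreg (0.996) and Bex3 (0.996), and 429 of 10342 genes had an r over 0.98 with it. S100a10 had the lowest r with that mean, 0.881, and S100a11, Anxa1 and Anxa2 were at 0.994, 0.994 and 0.996. Over the 19 samples with sorted cells, r with the mean profile was 0.553 for S100a10 and 0.737 for Anxa3, and 0.858 to 0.991 for the other 6, and the closest genes were Bex3 (0.988), Slc25a4 (0.985) and Cd63 (0.9805). The samples share the change from liver to tumor, so these values describe that shared change and carry no p.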

How the data were processed

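RNA was sequenced from 14 tissue libraries and 6 sorted-cell libraries. The authors deposited raw counts per gene and, per the file headers, the gene length in bases. The submitters' notes list CASAVA, HISAT2 2.0.5, featureCounts 1.5.0-p3 and GRCm38/mm10. The annotation and the handling of overlapping genes are not given in the sources used here. Counts are not normalized, and intervals on counts cover counting error alone. Depth was 16032085 to 20548370 counts a library. Groups and replicate numbers came from the labels. Ht_1 and Ht_3 were summed, leaving 19 samples, and L-con, with 1 library, entered the fits without a test.

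Counts were tested in R 4.3.3 with edgeR 4.0.16 (TMM scaling, filterByExpr, quasi-likelihood F test, Benjamini-Hochberg adjustment over all genes tested): 13 tissue samples in 7 groups, 6 sorted libraries, and all 19 samples for sorted cells against tissue. A gene was called where the adjusted p did not exceed 0.05 and the log2 fold change was 1 or more in size. Mt is the mean of Mt3, Mt2 and Mt1. Levels are CPM from the TMM scaling of all 19 samples, so a fold of mean CPM can differ from a fitted one, and FPKM divides them by the deposited length. The interval of S100a4 against con is the exact conditional interval on summed counts. Exon overlaps came from GENCODE M21. Each kind of test was tested on simulated data.

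The members, gene lists and tests were chosen with earlier results of these data known. Genes named are the 8 members, genes of the lists called in a comparison, the most abundant of a list, those at or under 3 counts, and the 3 genes with the highest r to a member among genes tested with a mean log2 CPM of at least 3. The values were known when the choice among these genes was made. A planned correlation of the 8 genes with the hepatocyte sum over the 6 Mt libraries is not given, since those libraries fall into separate clusters of 2 and 4. Alternatives were DESeq2 1.42.0, other scalings, filters, thresholds and groupings, the replicate number as a block, and leaving out each sample in turn. The values of 1 gene on the list of partners and receptors are not reported.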

Additional observations from a re-analysis of the deposited data

Results flagged for a closer look

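L-con, tumor-free liver of a mouse with metastases, has 1 library and entered no test. Its level was above both con libraries for 7 of the 8 genes, and for 38.3% of 17187 genes in all. S100a6 stood at 45.8 CPM in L-con against 0.259 and 1.46 CPM in con. Lgals1 was at 107 CPM against 11.7 and 34.3, and S100a10 at 178 CPM against 93.8 and 154. The level of Anxa2 was 32.0 CPM against 16.8 and 17.0, that of Anxa1 14.7 CPM against 3.54 and 5.86, that of S100a11 13.99 CPM against 3.97 and 6.59, and that of Anxa3 10.7 CPM against 4.57 and 6.41. S100a4 had 1 count in L-con and 2 and 0 in con. In the same library the fibroblast and stellate markers summed to 721 CPM against 304 and 423 in con, and the monocyte markers to 70.2 CPM against 10.1 and 14.3. Kupffer cell markers summed to 953 CPM against 333 and 445, macrophage markers to 1026 CPM against 446 and 663, epithelial markers to 618 CPM against 536 and 584, neutrophil markers to 4.23 CPM against 1.81 and 3.57, and B cell markers to 2.16 CPM against 1.12 and 1.65. Hepatocyte markers were below both con libraries, at 168582 CPM against 172372 and 210826. With 1 library the difference from con was not tested.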

How the results depend on the processing

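Direction and side of the threshold were kept by 703 of 757 log2 fold changes over the alternatives that keep every sample, and by 672 of 728 with a sample left out. Where a sample left out leaves 1 in its group, that sample is assumed to vary like the other groups. From con to Lt, from con to Ht and from Ht to F4/80+TAM, the number of the 8 genes called stayed within 1.5 times under each alternative. From Mt to Ht it was 0, and became 1 with DESeq2, 6 with total-count scaling, 6 with totals without the hepatocyte list, 4 with no filter, 1 with no fold threshold, 1 with Ht as 3 libraries, and 0 to 5 with a sample left out. From Lt to Ht it was 5, became 8 with total-count scaling, and ran from 1 to 6 with a sample left out. From CD11b+TAM to F4/80+TAM it was 0, and became 2 with DESeq2 and 2 with no filter. From Ht to CD11b+TAM it was 3, and became 6 with total-count scaling, 6 with totals without the hepatocyte list, 5 with no fold threshold, and 2 to 5 with a sample left out. With a sample left out it ran from 3 to 7 from Mt2 to F4/80+TAM, against 7, and from 1 to 3 from Mt2 to CD11b+TAM, against 3. Replicate numbers are not said to pair samples: deviations of samples with the same number had r of 0.19, 0.40 and 0.27 between Lt and Mt3, Mt2 and Mt1, -0.13, -0.25 and -0.23 between those and Ht, -0.11 between con and Lt, -0.08 between con and Ht, and -0.04 between Lt and Ht. With the replicate block the count from Mt to Ht became 1 (Lgals1, 1.13), S100a10 from Ht to CD11b+TAM was called at -1.04 in place of -0.87, S100a11 from Mt2 to CD11b+TAM was -0.15 in place of 0.02, the 11 genes called from CD11b+TAM to F4/80+TAM became 78, and no other call of the 8 genes changed. S100a11 there was also -0.13 with total-count scaling, -0.21 with totals without the hepatocyte list, -0.02 with a minimum of 10 counts, and -0.41 to 0.68 with a sample left out. S100a10 from Lt to Mt was -0.20, and became 0.18 with total-count scaling, 0.12 with totals without the hepatocyte list, and -0.35 to 0.00 with a sample left out. With a sample left out, S100a4 ran from -0.05 to 1.44 from Lt to Mt, from -1.25 to 0.36 from CD11b+TAM to F4/80+TAM and from -1.49 to 0.22 from Mt2 to CD11b+TAM. S100a10 from Lt to Ht was 0.12, became 1.03 with total-count scaling and 0.87 with totals without the hepatocyte list, and ran from -0.03 to 0.32 with a sample left out. Likewise from Mt2 to CD11b+TAM Anxa1 ran from -0.95 to 0.16 and Anxa2 from -0.56 to 0.51. Over all genes, total-count scaling gave 2587 called higher and 1773 lower from Mt to Ht (257 and 2306 with TMM), 8822 and 2249 from con to Ht (4437 and 4139), 6216 and 2081 from Lt to Ht (2004 and 3476), 2178 and 5206 from Ht to F4/80+TAM (3414 and 3893), and 2135 and 5488 from Ht to CD11b+TAM (3466 and 4130). DESeq2 called 235 genes from Lt to Mt and 302 from CD11b+TAM to F4/80+TAM, where edgeR called 0 and 11, and edgeR with no filter called 887 and 242. The cause of these changes was not tested. A minimum of 10 counts left S100a4 with no value in the fits that hold con, and S100a6 likewise.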
